A study of Mus musculus with 3 samples.

Results

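The genes described here are 35 mouse genes that build, supply and police the folding compartment of the endoplasmic reticulum (ER). They were taken as the gene probes of the array whose gene name was on a list of ER chaperones and unfolded protein response genes, and all 35 were found among the 26840 named genes of the array, on 74 probes of 60 bases. The cells were RAW 264.7 cells, an established mouse macrophage line. In the CRL1505 + LPS group the cells, plated at 500000 per well, were exposed for 24 h to *Lacticaseibacillus rhamnosus* CRL1505 at 50000000 bacteria per mL, washed, and then given 50 ng/mL of lipopolysaccharide (LPS), the ligand of Toll-like receptor 4. The CRL1506 + LPS group received *Lactiplantibacillus plantarum* CRL1506 at the same dose and for the same time before LPS, and the LPS group received LPS with no bacteria, so all 3 groups carried the LPS stimulus and none of those described here was unstimulated. The series text and the study's methods give 12 h of LPS, while the sample descriptions give 3 h. RNA of each group was measured on 1 single-colour array, so no difference below has a replicate check, and no p-value is given. The question addressed was how each strain altered the RNA levels of these genes under LPS, relative to LPS alone.

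Proteins that enter the secretory pathway are threaded through the SEC61 channel and folded in the ER by BiP (*Hspa5*), GRP94 (*Hsp90b1*), the lectins calnexin and calreticulin and the protein disulfide isomerases. Chains that do not fold are drawn back out by the HRD1 ligase complex and degraded by the proteasome, a route called ER-associated degradation. When unfolded chains accumulate, the sensors IRE1 (*Ern1*), PERK (*Eif2ak3*) and ATF6 start the unfolded protein response. IRE1 splices *Xbp1* mRNA, and spliced XBP1 and cleaved ATF6 then switch on many of the genes named here. In macrophages, Toll-like receptor signalling is known to engage the IRE1 and XBP1 arm while the cell turns to cytokine secretion.

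Near their start sites, some of these genes hold letters by which the response is usually recognised. The ER stress response element (ERSE), CCAAT and CCACG with 9 bases of any kind between them, was searched on both strands from 250 bases before to 50 bases after each start site in RefSeq sequence of build GRCm38.p6. It was present in 9 of the 29 members that had such a window, or 31.0%, and in 0.137% of all 27025 genes with a window. The members were listed as genes of this response, so these shares describe the list and test nothing. The other 6 members (*Derl1*, *Hyou1*, *Manf*, *Ssr2*, *Atf6* and *Sec61a1*) had no window in the sequences used. The matches are shown because they let a reader set the element beside the expression of the same gene. Capitals mark the fixed letters, and 10 bases of flank are given on each side, 5′ to 3′ on the stated strand.
Hspa5, chr2:34772015-34772053, plus strand: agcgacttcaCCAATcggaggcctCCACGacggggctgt
Syvn1, chr19:6046522-6046560, plus strand: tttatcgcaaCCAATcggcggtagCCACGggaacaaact
Pdia6, chr12:17266481-17266519, plus strand: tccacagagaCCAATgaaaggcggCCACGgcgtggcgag
Dnajc3, chr14:118937817-118937855, plus strand: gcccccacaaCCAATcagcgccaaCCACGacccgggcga
Creld2, chr15:88819510-88819548, minus strand: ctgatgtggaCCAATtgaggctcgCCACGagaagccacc
Hsp90b1, distal, chr10:86705628-86705666, minus strand: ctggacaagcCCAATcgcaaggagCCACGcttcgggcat
Hsp90b1, proximal, chr10:86705523-86705561, plus strand: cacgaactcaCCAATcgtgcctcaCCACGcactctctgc
Canx, chr11:50325790-50325828, minus strand: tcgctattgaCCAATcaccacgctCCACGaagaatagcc
Calr, chr8:84847065-84847103, plus strand: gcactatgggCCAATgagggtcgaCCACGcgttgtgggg
Derl3, chr10:75893232-75893270, minus strand: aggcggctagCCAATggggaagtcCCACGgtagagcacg

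The matches lay upstream of the start site in every case, from position -65 to -47 in *Hspa5* and from -44 to -26 in *Syvn1*, and *Hsp90b1* carried a pair of them. The related ERSE-II, ATTGG and CCACG with 1 base between them, was found in *Herpud1* and *Dnajb11*, against 0.0444% of all genes, and the XBP1 core GCCACGT, which shares the letters CCACG with the ERSE, in 6 members (*Derl3*, *Herpud1*, *P4hb*, *Ssr1*, *Ssr3* and *Vcp*), 20.7% of those with a window against 2.95% of all genes. TGACGTGG, the core of the UPR element, was found in *Vcp* alone, where it overlaps the XBP1 core, against 0.714% of all genes. TGATGNAA, a composite letter pattern of ATF4, was found in *Herpud1* alone, against 4.51% of all genes. The windows of *Dnajb9* and *Xbp1*, the members with the highest ratios with CRL1505, held none of these patterns. The 250 bases upstream of *Dnajb9* are printed with the separate ERSE parts in capitals, a CCAAT at position -65 and a CCACG at -108 and at -15, which do not stand in the ERSE spacing, while those of *Xbp1* held neither part.
Herpud1 ERSE-II, chr8:94386367-94386397, plus strand: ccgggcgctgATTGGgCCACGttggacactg
Ssr3 XBP1 core, chr3:65392728-65392754, minus strand: gcattgaggcGCCACGTaccctgaagg
Dnajb9 upstream, chr12:44210069-44210318, minus strand: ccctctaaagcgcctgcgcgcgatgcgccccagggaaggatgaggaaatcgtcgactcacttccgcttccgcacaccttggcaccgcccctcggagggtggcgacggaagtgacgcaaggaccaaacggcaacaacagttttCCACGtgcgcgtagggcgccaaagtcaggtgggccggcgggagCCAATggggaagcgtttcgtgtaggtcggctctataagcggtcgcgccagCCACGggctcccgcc

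Levels below are log2 signals relative to the 75th percentile of that array's gene spots, so that 0 is a spot at that percentile, and a log2 ratio is the difference of such levels. Each gene is given by its brightest probe, and every member's brightest probe was well above background on all 3 arrays, as were 68 of the 74 member probes. Of the gene spots, between 48.5% and 55.3% were well above background per array, lowest with CRL1505, whose 75th percentile signal of 517 was also below the 743 of LPS and the 698 of CRL1506. Macrophage markers were at hand on every array, 10 of 10 with LPS and 9 with each strain, *Mrc1* being the exception, with signals that summed to 739, 693 and 581 times the 75th percentile of the array for LPS, CRL1505 and CRL1506. Their median log2 ratio to LPS was 0.15 with CRL1505 (from -1.47 for *Csf1r* to 2.27) and -0.25 with CRL1506, over 9 measured genes. Of 4 T cell markers, *Cd3e* and *Cd4* were well above background on all arrays, with sums for the list of 2.85, 2.72 and 2.63 times that percentile, and *Cd3g* and *Cd8a* on none. Of 7 B cell and plasma cell markers, cells in which this response runs high, 3, 2 and 3 were well above background and *Cd79a* and *Jchain* were so on no array. Of the epithelial markers none was. Of 3 fibroblast markers, 0, 1 and 2 were well above background for LPS, CRL1505 and CRL1506, with sums of 0.09, 0.20 and 0.24 times that percentile. Of 3 endothelial markers, 1, 2 and 3 were, with sums of 0.17, 0.29 and 0.26 times it. The part of other cells in the values below was not tested. The arrays of LPS and CRL1506 shared a slide and that of CRL1505 was on another, so that slide and CRL1505 cannot be told apart in any value below. With bulk RNA, fewer cells making a transcript and less of it per cell cannot be told apart either.

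With CRL1505, the members at least 2-fold above LPS alone were the DnaJ co-chaperone *Dnajb9*, the transcription factor *Xbp1*, the degradation genes *Syvn1*, *Derl1* and *Sel1l*, and the translocation gene *Ssr3*. The median log2 ratio of the 35 members was 0.35, against 0.06 for all 13242 genes well above background on both arrays. At least 2-fold higher were 6 of the 35 members, beside 9.92% of the 15609 genes compared, and 1 was at least 2-fold lower, beside 8.41%. At a threshold of 1.5-fold, 10 were higher, beside 19.1%, and 2 lower, beside 17.2%. Above 0 were 27 of the 35 members, while 54.4% of the measured genes were, and 10 were after a shift by spike-in controls, which moved the all-gene median by -0.51. The members were mostly abundant transcripts, and for the 30 members brighter than the 75th percentile on average the median was 0.37, against 0.09 for all 8105 genes that bright.

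With CRL1506 the same genes stayed near their LPS level. The median ratio was -0.05, against -0.06 for the 14407 genes well above background on both arrays. No member was 2-fold higher, beside 5.67% of the 16284 genes compared, and 1 was 2-fold lower, beside 3.52%. At 1.5-fold, 1 was higher, beside 11.7%, and 2 lower, beside 9.22%, so that 32 of the 35 members lay within 1.5-fold of LPS. Most other abundant transcripts did so too. Of the 8100 genes compared that were brighter than the 75th percentile on average, 163 were 2-fold higher and 89 lower. At 1.5-fold, 404 of these bright genes were higher and 454 lower. Above 0 were 12 members, and between 4 and 19 under other normalizations, beside 41.8% of the measured genes. Both comparisons used the same LPS array, so their values are set side by side and not counted as separate evidence.

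Between the strains, 30 of the 35 members were higher with CRL1505 than with CRL1506, and between 20 and 33 of them under other normalizations. The median log2 ratio was 0.41, against 0.09 for the 13316 genes measured on both, of which 56.3% were above 0. *Hspa5*, *Xbp1*, *Dnajb9*, *Manf*, *Syvn1* and *Ssr3* were at least 2-fold higher, 6 of 35 beside 9.01% of the 15785 genes compared, and no member was 2-fold lower, beside 7.46%. Dimmer probes of *Hspa5* (0.57 and 0.70), *Manf* (0.90), *Dnajb9* (0.55) and *Ssr3* (0.43) placed CRL1505 higher but short of 2-fold. Those of *Xbp1* passed 2-fold, and *Syvn1* had 1 probe. At 1.5-fold, 12 were higher, beside 19% of the genes compared, and 2 lower, beside 17.3%. The level of a whole list depends on how the arrays are scaled, and this is stated with its values after the single genes.

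**Figure D1:**
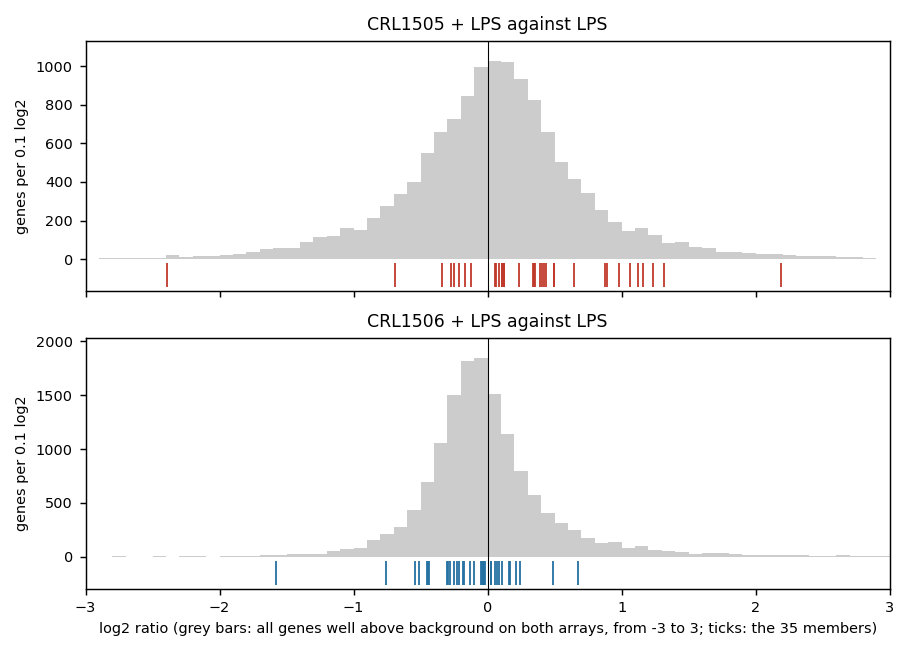
Number of genes per 0.1 log2 (vertical axis) by log2 ratio to LPS alone (horizontal axis, from -3 to 3) for all genes well above background on both arrays (grey bars), with the 35 members as ticks, for CRL1505 + LPS (upper panel) and CRL1506 + LPS (lower panel). The member ticks centre on 0.35 in the upper panel and on -0.05 in the lower one, with *Dnajb9* at 2.19 and *Derl3* at -2.39 as the outermost members with CRL1505.

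Among the sensors and their transcription factor, *Xbp1* set CRL1505 apart. *Xbp1* encodes the factor whose mRNA IRE1 splices, and its level was 4.92 with LPS, 6.23 with CRL1505 and 4.89 with CRL1506 (probe at chr11:5425816-5425875, build mm9). The CRL1505 array was therefore high and the other two lay together. The log2 ratio to LPS was 1.32 with CRL1505 and -0.03 with CRL1506, which is 2.49-fold and 1.02-fold, and 4.39% of the measured genes had a higher ratio with CRL1505. Its 3 probes gave ratios from 1.32 to 1.59 with CRL1505 and from -0.40 to -0.03 with CRL1506. Whether any of them tells spliced from unspliced *Xbp1* mRNA was not determined.

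*Ern1*, which encodes IRE1 itself, had levels of -0.02 with LPS, 0.62 with CRL1505 and 0.22 with CRL1506. This placed CRL1505 highest by the brightest probe, at a ratio of 0.64, but the second probe in brightness gave -0.39 with CRL1505 and 0.86 with CRL1506, so the probes of *Ern1* disagreed on which strain was higher. *Eif2ak3*, the PERK kinase, was at -0.27, -0.54 and -0.81 for LPS, CRL1505 and CRL1506, lower with both strains by the brightest probe. Its second, dimmer probe gave ratios of 0.01 with CRL1505 and -0.44 with CRL1506. *Atf6* was at 2.94, 3.17 and 2.76, with ratios of 0.23 and -0.18. By the brightest probes, no gene of this group apart from *Xbp1* was 2-fold apart from LPS with either strain. With CRL1506, however, a dim probe of *Atf6* gave a ratio of 1.11 and another dim probe of *Ern1* gave 1.40.

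The HSP70 and HSP90 chaperones and their co-chaperones held the member with the highest ratio. *Dnajb9* (ERdj4) encodes a DnaJ protein that directs BiP and is known as a target of spliced XBP1. Its level was -0.21 with LPS, 1.98 with CRL1505 and 0.46 with CRL1506 (chr12:45307071-45307129, mm9), corresponding to signals of 642, 2039 and 963. Both strains were above LPS, CRL1505 by far the most. The ratios were 2.19 with CRL1505, or 4.56-fold, and 0.67 with CRL1506, or 1.60-fold, and 1.1% of the measured genes had a higher ratio with CRL1505. A second probe gave 1.45 and 0.90.

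*Hspa5* encodes BiP, the HSP70 of the ER and the main client-binding chaperone. Its level was 7.12 with LPS, 8.10 with CRL1505 and 7.07 with CRL1506 (chr2:34631913-34631972, mm9). CRL1505 was 1.98-fold above LPS, just short of 2-fold, and 2.05-fold above CRL1506, while CRL1506 and LPS differed by 1.04-fold. All 3 probes placed CRL1505 above LPS, at ratios from 0.80 to 0.98, and above CRL1506, from 0.57 to 1.04. *Manf*, which encodes a secreted BiP cofactor, followed the same order, at 3.56, 4.43 and 3.26, and was 2.25-fold higher with CRL1505 than with CRL1506, on the other side of LPS. *Dnajc3*, which encodes the co-chaperone p58IPK, was at -0.58, -0.23 and -0.83, 1.51-fold higher with CRL1505 than with CRL1506.

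*Hsp90b1*, the HSP90 of the ER, did not share the pattern of *Hspa5*. Its level was 6.90 with LPS, 6.99 with CRL1505 and 6.45 with CRL1506, so that CRL1505 lay with LPS and CRL1506 below both. *Hyou1*, an HSP110-type exchange factor for BiP, was nearly level between the strains, at ratios of 0.42 and 0.49. *Creld2*, *Dnajb11* and *Sdf2l1* lay within 1.5-fold of LPS with both strains, at ratios between -0.30 and 0.10. Over the 9 genes of this group the median was 0.35 with CRL1505, or -0.16 under the spike-in shift, and -0.18 with CRL1506.

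**Figure D2:**
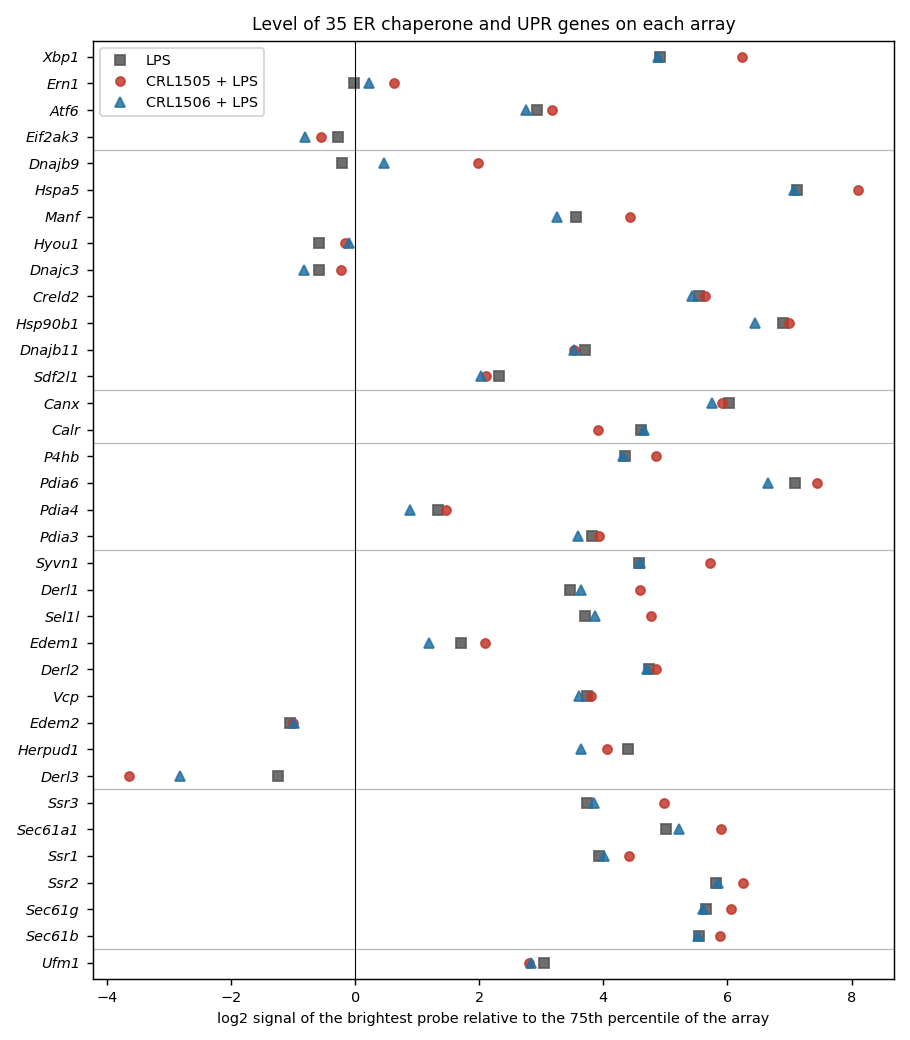
Level of the brightest probe of each of the 35 genes on the arrays of LPS (squares), CRL1505 + LPS (circles) and CRL1506 + LPS (triangles), as log2 signal relative to the 75th percentile of the array (horizontal axis), grouped by role with grey lines between groups; symbols are to be compared within a row, since probes differ in brightness. In the rows of *Xbp1*, *Hspa5*, *Syvn1* and *Ssr3* the squares and triangles nearly coincide and the circle lies about 1 unit or more to the right, and in the row of *Derl3* both strains lie to the left of LPS.

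The lectin chaperones and disulfide isomerases lay within 2-fold of LPS on both strain arrays. *Calr*, which encodes the calcium-binding lectin calreticulin, was at 4.60 with LPS, 3.91 with CRL1505 and 4.65 with CRL1506 (chr8:87366192-87366251, mm9). Here CRL1505 was the low array, by 1.61-fold from LPS and 1.67-fold from CRL1506, although the gene carries an ERSE as *Hspa5* does. It was measured by 1 probe. *Canx*, calnexin, was within 1.5-fold on all arrays, at ratios of -0.12 and -0.28.

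All 4 disulfide isomerases (*Pdia3*, *Pdia4*, *Pdia6* and *P4hb*) had ratios above 0 with CRL1505, from 0.11 to 0.50, and below 0 with CRL1506, from -0.44 to -0.03, but with CRL1505 all 4 were below 0 under the spike-in shift, and with CRL1506 *P4hb* was above 0 under some normalizations. None was 1.5-fold apart from LPS with either strain. *Pdia6*, an abundant isomerase that works with BiP, was at 7.10 with LPS, 7.45 with CRL1505 and 6.66 with CRL1506, with LPS midway, and was 1.72-fold higher with CRL1505 than with CRL1506. The medians of the group were 0.24 with CRL1505 and -0.33 with CRL1506.

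Of the 9 genes of ER-associated degradation, 3 were at least 2-fold higher with CRL1505, beside 9.92% of all genes compared. At least 2-fold lower was 1, beside 8.41%. The median ratio was 0.12, or -0.39 under the spike-in shift, against -0.03 with CRL1506. *Syvn1* encodes HRD1, the ubiquitin ligase at the centre of the complex, *Sel1l* its partner that receives substrates, and *Derl1* a derlin of the exit channel. *Syvn1* was at 4.57 with LPS, 5.72 with CRL1505 and 4.59 with CRL1506 (chr19:6053568-6053627, mm9, 1 probe). *Sel1l* was at 3.70, 4.76 and 3.86 (chr12:93045073-93045132). *Derl1* was at 3.46, 4.59 and 3.63 (chr15:57703097-57703156). By these brightest probes CRL1505 was the high array in each of them, and CRL1506 lay within 0.17 log2 of LPS. The ratios with CRL1505 were 1.16, 1.06 and 1.13, or 2.23-fold, 2.09-fold and 2.18-fold, against 0.02, 0.16 and 0.17 with CRL1506. However, a dim probe of *Sel1l* (0.57 with CRL1505 and 1.75 with CRL1506) and one of *Derl1* (0.59 and 1.15) placed CRL1506 above CRL1505. The other dimmer probe of *Sel1l* gave 1.06 with CRL1505 and 0.10 with CRL1506.

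*Edem1*, which encodes a mannosidase-like protein that marks glycoproteins for removal, was at 1.70, 2.09 and 1.19 for LPS, CRL1505 and CRL1506. It was 1.87-fold higher with CRL1505 than with CRL1506, with LPS between, but a second, dimmer probe gave -0.38 for CRL1505 against LPS. *Edem2*, *Derl2* and *Vcp*, the last encoding the ATPase that pulls chains into the cytosol, lay within 1.5-fold of LPS with both strains, at ratios between -0.13 and 0.12.

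*Herpud1* and *Derl3* lay below LPS with both strains. *Herpud1* encodes a membrane scaffold of the HRD1 complex that is known to answer to ATF4 and ATF6, and it was at 4.40, 4.06 and 3.64, and was 1.69-fold lower with CRL1506. *Derl3*, a derlin known to be induced by ER stress, was at -1.25, -3.65 and -2.83 (chr10:75358606-75358665, mm9), with signals of 312, 41.3 and 98.3. It was 5.25-fold lower with CRL1505 and 2.98-fold lower with CRL1506, but the log2 ratio with CRL1505, -2.39, was -1.22 with the normexp background correction and -1.40 in the deposited table. On the scale used, 0.415% of the measured genes had a lower ratio with CRL1505. *Derl3* rests on 1 dim probe, and its signal with CRL1505 was close to 29.6, the lowest that counted as well above background on that array.

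**Figure D3:**
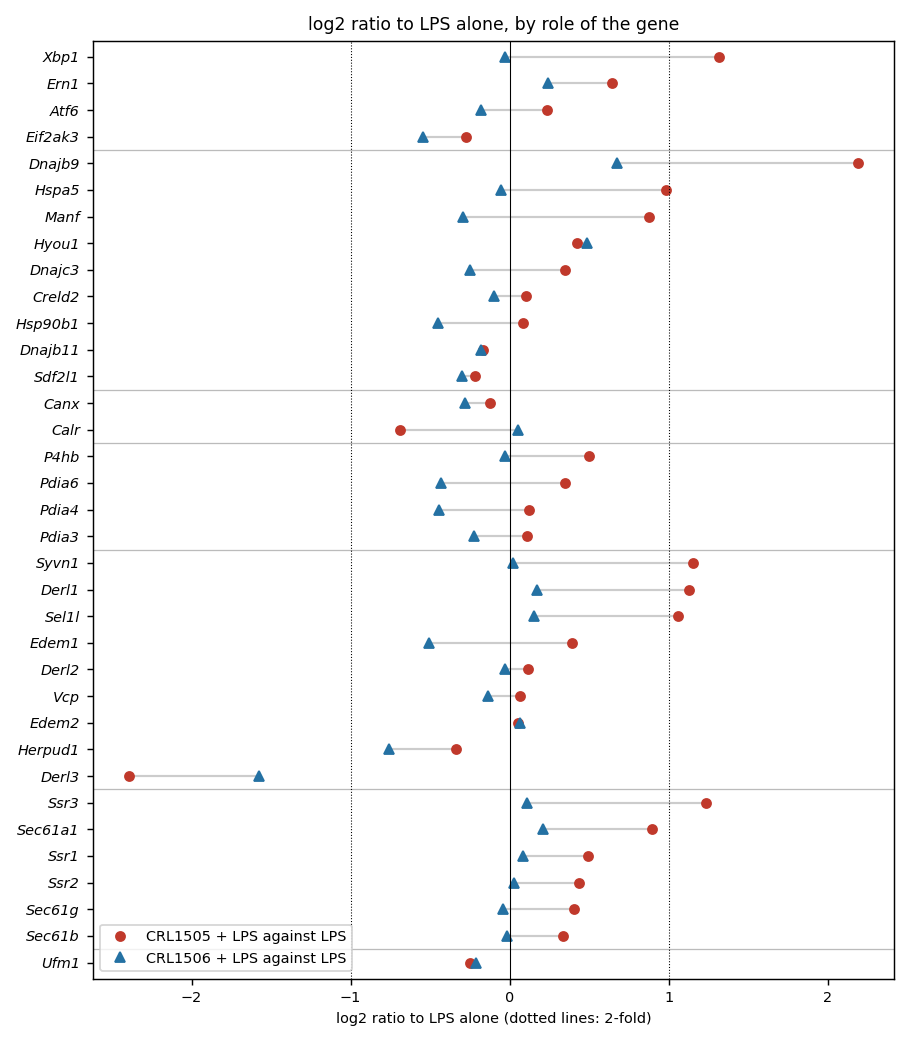
log2 ratio to LPS alone of each of the 35 genes with CRL1505 + LPS (circles) and CRL1506 + LPS (triangles), grouped by role, with a grey line joining both values of a gene and dotted lines at 2-fold. Circles lie to the right of triangles in 30 of the 35 rows (20 to 33 under other normalizations), and 6 circles and no triangle lie beyond the right dotted line.

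The 6 genes of the translocation channel and its associated TRAP complex were all above LPS with CRL1505, except under the spike-in shift, where 2 of the 6 were. Their ratios ran from 0.34 to 1.24 with a median of 0.46 with CRL1505, and from -0.04 to 0.21 with CRL1506. *Ssr3*, the gamma subunit of TRAP, was at 3.73 with LPS, 4.97 with CRL1505 and 3.84 with CRL1506 (chr3:65183796-65183855, mm9), 2.36-fold above LPS with CRL1505 and 1.08-fold with CRL1506. Its second probe gave a ratio of 0.52 with CRL1505, less than the brightest. *Sec61a1*, the pore-forming subunit, was at 5.00, 5.89 and 5.21, 1.86-fold above LPS with CRL1505 and 1.16-fold with CRL1506. Its dimmer probes hardly separated the strains. One gave ratios to LPS of 0.62 with CRL1505 and 0.56 with CRL1506, and the other 0.43 and 0.56. *Ssr1*, *Ssr2*, *Sec61b* and *Sec61g* had smaller ratios with CRL1505, from 0.34 to 0.50.

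One of these, *Sec61g*, was spotted 10 times with the same probe, which shows the error of a single spot. Its ratio was 0.41 ± 0.06 (SD over 10 spots) with CRL1505, with single spots from 0.33 to 0.52, -0.04 ± 0.04 with CRL1506, from -0.10 to 0.04, and 0.45 ± 0.05 for CRL1505 against CRL1506, from 0.38 to 0.55. On this scale every spot placed CRL1505 above both other arrays, whereas under the spike-in shift the ratio of *Sec61g* to LPS with CRL1505 was -0.10. This spread covers printing and hybridisation on these arrays, not new cultures. *Ufm1*, a ubiquitin-like modifier that is attached to ribosomes at the ER, had ratios of -0.25 and -0.21, within 1.5-fold of LPS with both strains.

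At least 2-fold above LPS with CRL1505 and within 1.5-fold of it with CRL1506 were 5 members, *Xbp1*, *Sel1l*, *Syvn1*, *Derl1* and *Ssr3*, beside 4.81% of the 13126 genes measured on all arrays. Just inside the 2-fold line with CRL1505 were *Sel1l* at 1.06 and *Derl1* at 1.13, and just outside it *Hspa5* at 0.98 and *Sec61a1* at 0.89. Different probes of a gene differed by a median SD of 0.15 over the 24 members with 2 or more measured probes in this comparison, and by 0.23 over 5514 genes. Of the members 2-fold higher with CRL1505, 5 had 2 or more measured probes (*Xbp1*, *Dnajb9*, *Sel1l*, *Derl1* and *Ssr3*). In each of these all probes placed CRL1505 above LPS. With CRL1506, however, a dim probe of *Sel1l* (1.75) and one of *Derl1* (1.15) were more than 2-fold above LPS. Closer to LPS than the SD between probes lay 10 members with CRL1505 and 20 with CRL1506.

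**Figure D4:**
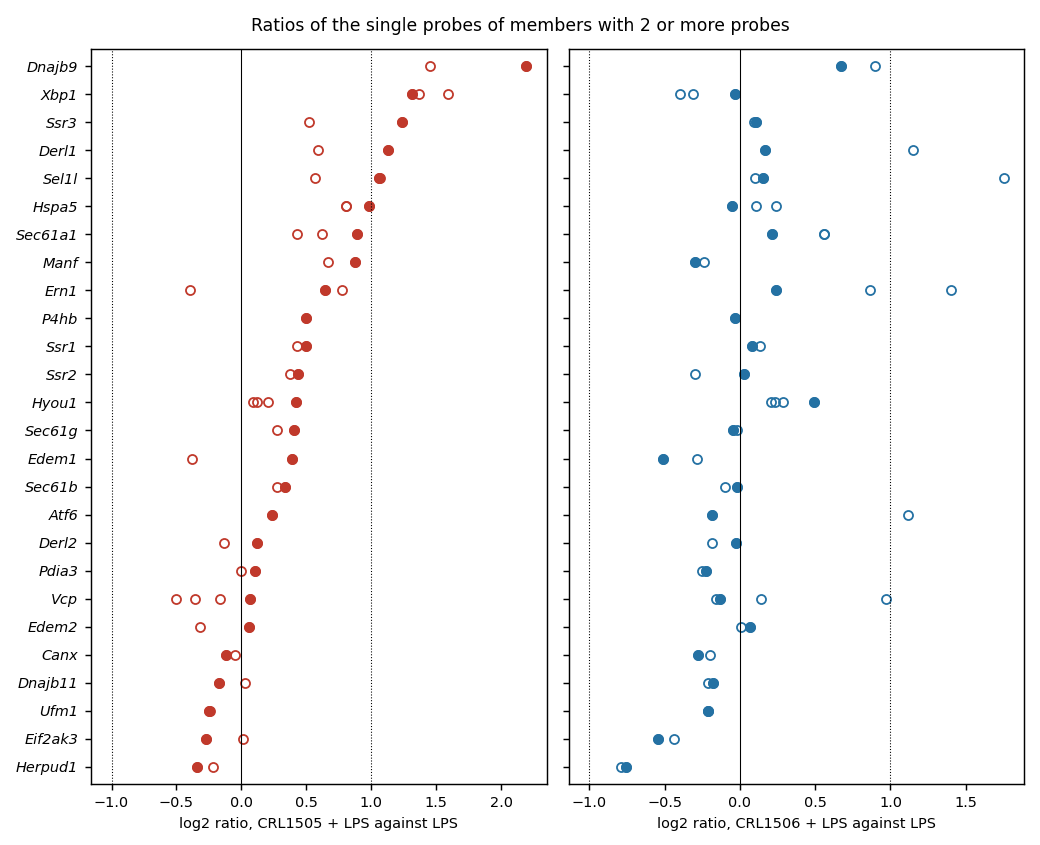
log2 ratio to LPS of every measured probe of the members with 2 or more probes, with CRL1505 + LPS (left) and CRL1506 + LPS (right); filled circles are the brightest probe of a gene, open circles its other probes, and dotted lines mark 2-fold. All probes of *Dnajb9*, *Xbp1* and *Hspa5* lie right of 0 in the left panel, whereas single dim probes of *Sel1l*, *Ern1*, *Derl1* and *Atf6* lie beyond 1 in the right panel, away from the brightest probe.

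The level of the ratios depended on the array scaling. The median of all genes for CRL1505 against LPS, 0.06 on the scale used, was 0.35 after a shift by the array median and -0.45 after a shift by the E1A spike-in controls. Over 14 settings, the main one included, the median of the members minus that of all genes stayed between 0.16 and 0.29 with CRL1505. It stayed between -0.13 and 0.07 with CRL1506, and between 0.18 and 0.35 for CRL1505 against CRL1506. The member median itself with CRL1505 was above 0 except under the spike-in shift, where it was -0.16. Under all 7 other normalizations *Hspa5*, *Xbp1*, *Ern1*, *Dnajb9*, *Manf*, *Sel1l*, *Syvn1*, *Derl1*, *Sec61a1* and *Ssr3* stayed above 0 with CRL1505, and *Calr*, *Herpud1* and *Derl3* below 0. Every other member changed sign under at least 1 of them. *Dnajb9* was 2-fold higher and *Derl3* 2-fold lower with CRL1505 under every one of them, while *Xbp1* and *Ssr3* passed 2-fold under 6, *Syvn1* under 5, *Derl1* under 4, *Sel1l* under 2 and *Hspa5* under 1.

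**Figure D5:**
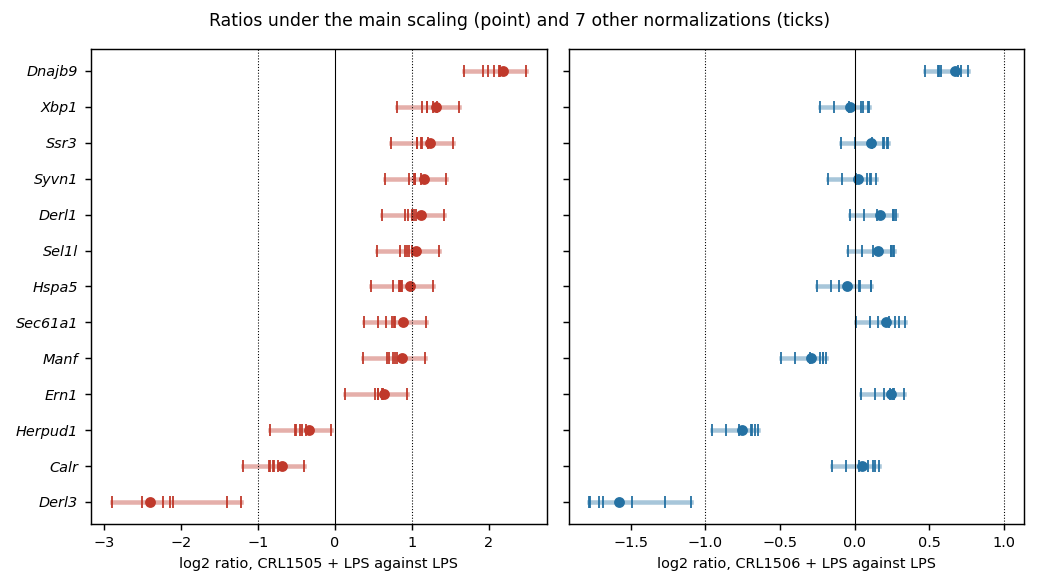
log2 ratio to LPS of 13 members with CRL1505 + LPS (left) and CRL1506 + LPS (right) under the 75th percentile shift (points) and 7 other normalizations (ticks, with a pale bar over their range); dotted lines mark 2-fold. With CRL1505 the whole range of *Dnajb9*, 1.68 to 2.49, lies beyond 2-fold, that of *Xbp1* runs from 0.81 to 1.61, and the 10 upper genes stay above 0 throughout.

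Set beside the promoter letters, members with an ERSE did not stand above those without. The 9 members with a match had a median ratio of 0.10 with CRL1505, running from -2.39 for *Derl3* to 1.16 for *Syvn1*, with 1 gene 2-fold higher and 1 lower. The 20 members with a window and no match had a median of 0.23, with 4 genes 2-fold higher and none lower. Of all genes compared, 9.92% were 2-fold higher and 8.41% lower. With CRL1506 the medians were -0.25 and -0.04.

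Further genes of the secretory pathway, taken from 7 lists of ER functions that hold none of the 35, were read the same way. Of 124 listed genes 120 could be compared, with a median ratio of 0.31 with CRL1505, against 0.06 for all genes. At least 2-fold higher were 10 genes, and none was 2-fold lower, beside 8.41% of all genes compared. Above 0 were 95, beside 54.4% of all measured genes. Under every normalization 34 were above 0 and 11 below. Among the 10 were *Sec24d* at 1.61 and *Sec24a* at 1.05, which encode cargo adaptors of COPII vesicles, *Ero1l* at 1.56, the oxidase that recharges disulfide isomerases, *Pdia5* at 1.09, *Fkbp11* at 1.26, a prolyl isomerase, *Wfs1* at 1.48, *Selenos* at 1.30, which acts beside the derlins, *Srpr* at 1.15, the receptor of the signal recognition particle, and *Gfpt1* at 1.08, which feeds the hexosamine pathway. The 10 of 120 stood beside 9.92% of all genes compared, and *Ero1l* and *Sec24d* passed 2-fold under every normalization. With CRL1506 the median was -0.11, against -0.06 for all genes. None was 2-fold higher, beside 5.67% of all genes compared, and *Sec24d* was lower at -1.03, beside 3.52%. Above 0 on the scale used were 33, beside 41.8% of all measured genes. Under every normalization 12 genes were above 0 and 60 below. By list, the medians with CRL1505 were 0.41 for other folding enzymes, 0.35 for other degradation genes, 0.33 for translocation and signal peptidase genes, 0.27 for N-glycosylation, 0.49 for ER export, 0.15 for UFM1 conjugation and 0.22 for other regulators of the response, all of which fall below 0 once the spike-in shift of -0.51 is added.

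Genes of the PERK arm downstream of ATF4 and CHOP are a separate branch of the same response. Of 16 listed, 14 were compared with CRL1505, with a median of 0.50, close to 0 once the spike-in shift of -0.51 is added, against 0.06 for all genes. At least 2-fold higher were 2, beside 9.92% of the genes compared, and 1 was lower, beside 8.41%. *Ddit3*, which encodes CHOP, was at 1.44, *Ppp1r15a*, which encodes the phosphatase subunit GADD34, at 1.03, and the cystine transporter *Slc7a11* at -1.23. With CRL1506 these were at 0.88, 0.54 and -0.04, and the median was 0.13. The 2 probes of *Ddit3* disagreed in size with CRL1505, at 0.22 and 1.44. Heat shock proteins of the cytosol and mitochondria, chaperones outside the ER, had medians of 0.16 and -0.02 over 13 measured genes. None was 2-fold apart from LPS with either strain, beside 18.3% of all genes compared with CRL1505 and 9.19% with CRL1506.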

How the data were processed

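RNA of 3 groups of RAW 264.7 cells, 1 array each, was hybridised to the SurePrint G3 Mouse GE array and read per spot. Per the file headers, the deposited intensity files come from Agilent Feature Extraction 12.0.3.1, while the study text names another version. The processed signal, already background-corrected by that software, was used. A log2 table deposited by the authors, normalized with GeneSpring per their methods, has a median of 6.77 in each column; its centring is not stated, and it served as an alternative. No test was possible with 1 array per group, although the authors' methods name limma and a 2-fold threshold.

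From the processed signal, log2 values were shifted by each array's 75th percentile over 59305 gene spots. Outlier spots (467, 241 and 274 on the arrays of LPS, CRL1505 and CRL1506; none of a member) were left out, repeated spots were averaged, and each gene was read from its brightest probe over the arrays. A probe well above background on neither array gave no ratio, and one above on 1 array only a bound. Feature positions are those of the files, in build mm9, and the exon or UTR they fall in was not assigned. The members, the other lists and the settings were chosen with earlier results of these data known. All members could be named, with the value on each array for those at least 1.5-fold apart in any comparison and for the sensors, *Xbp1*, *Hspa5* and *Hsp90b1*; of other lists, genes at least 2-fold apart could be named, and some results for such genes are not reported here.

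Alternatives were other shifts (median, detected probes, spike-in), quantile and cyclic loess normalization and normexp background with limma 3.58.1 in R 4.3.3, the deposited table, other probe and spot filters, probe GC content, and thresholds of 1.5-fold and 4-fold. The calculation was tested on simulated data. Promoters were RefSeq windows of 300 bases, of which 32851 were searched. Python 3.11.15 with pandas 2.3.3, NumPy 2.4.6 and matplotlib 3.10.9 was used. The number of arrays limits the precision: spots of 1 probe differed by a median SD of 0.05 in log2 ratio, which covers the array and not the culture.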

Additional observations from a re-analysis of the deposited data

How the results depend on the processing

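With 1 array per group no array could be left out, and no paired analysis was possible because each group has 1 array. Single genes past 2-fold kept their direction under every alternative run. For CRL1505 + LPS against LPS, the median of the members, 0.35, was 0.64 after the median shift and -0.16 after the spike-in shift, where the CRL1505 array as a whole was scaled down; the count of members 2-fold higher, 6, was 1 with the spike-in shift, 3 with quantile normalization, 3 as the mean over probes, 10 at 1.5-fold and 1 at 4-fold, and the count lower, 1, was 2 with the spike-in shift and 2 at 1.5-fold. After the median shift *Hspa5*, *Manf* and *Sec61a1* also passed 2-fold in that comparison, at 1.28, 1.17 and 1.19, so the count higher rose there. For CRL1506 + LPS against LPS, the count higher, 0, was 1 at 1.5-fold, and the count lower, 1, was 2 at 1.5-fold and 0 at 4-fold. For CRL1505 + LPS against CRL1506 + LPS, the median, 0.41, was 0.91 after the median shift and 0.016 after the spike-in shift; the count higher, 6, was 15 with the median shift, 2 each with the 75th percentile of detected probes, quantile, cyclic loess and the deposited table, 1 with the spike-in shift, 12 at 1.5-fold and 0 at 4-fold, and the count lower, 0, was 1 with detected probes, 2 with the spike-in shift and 2 at 1.5-fold. Of the values of single genes under the alternatives, 1183 stayed within the SD between probes and 182 moved beyond it. The cause of these shifts between scalings was not tested.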

Other observations

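Dimmer probes of several members, some of them designed on other transcripts of the gene, gave values unlike the brightest probe with CRL1506. A probe of *Sel1l* had a ratio to LPS of 1.75 with CRL1506 and 0.57 with CRL1505, where the brightest probe had 0.16 and 1.06. A probe of *Vcp* had 0.97 with CRL1506 and -0.36 with CRL1505, against -0.13 and 0.06. A probe of *Derl1* had 1.15 and 0.59, against 0.17 and 1.13. The brighter of the other *Ern1* probes had 0.86 and -0.39, against 0.24 and 0.64. In these 4 genes the order of the strains by the dimmer probe named was thus the opposite of that by the brightest. On all 3 arrays these probes passed the background limit. The choice of probe was not tested further, and no second array is at hand to repeat them.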
